A study of Mus musculus with 24 samples.

Results

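The genes described here encode 8 surface proteins through which macrophages and T cells signal to each other: Cd274, Pdcd1lg2, Cd80, Cd86, Icosl, Tnfsf9, Cd40 and Havcr2. They were picked by symbol from a table of 43629 mouse genes, each symbol matched 1 gene, and all 8 were among the 18637 genes tested. RNA sequencing was done on bone marrow-derived macrophages, cultured cells that mature from precursors of the marrow, from C57BL/6 mice at postnatal week 10. Cells were wild type (WT) or CITED2-KO (KO), that is, without CITED2, a protein that modulates transcription through CBP and p300. Cells of each genotype were untreated controls or received lipopolysaccharide (LPS, a bacterial cell wall component sensed by a Toll-like receptor), interferon gamma (IFNg) or interleukin 4 (IL4), which gave 8 groups of 3 libraries. The study's title places the question in the part that CITED2 plays in the inflammatory response of macrophages. The labels give no dose or time of treatment, no account of how Cited2 was removed or in which cells, and no statement that replicates were separate animals or cultures. The p-values therefore measure the spread between these libraries, which may be technical.

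A T cell needs a signal beyond antigen recognition to respond, and the proteins that macrophages show it can strengthen or restrain that response. PD-L1 (encoded by Cd274) and PD-L2 (Pdcd1lg2) bind PD-1, an inhibitory receptor of activated T cells. CD80 and CD86 bind the activating receptor CD28 and the inhibitory receptor CTLA-4, and ICOSL (Icosl) binds ICOS, a CD28 relative. These 5 ligands belong to the B7 family, whereas 4-1BBL (Tnfsf9) is a ligand of the tumour necrosis factor family that binds the activating receptor 4-1BB. The other two genes encode receptors rather than ligands: CD40, through which CD40L of T cells activates macrophages and dendritic cells, and TIM-3 (Havcr2), an inhibitory receptor of T cells that myeloid cells also carry.

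Values are read counts scaled by the authors with 1 factor per library, called normalised read counts below, and group values are means ± SD over 3 libraries. Libraries held between 1478507 reads, in KO LPS replicate 1, and 73409343 reads. Each read of that shallowest library was worth 23.6 normalised counts, against 0.355 to 4.08 in the other 23 libraries, so its values for low genes are coarse. Cited2 itself was at 0.558% to 1.35% of the WT mean in the KO groups. The 8 macrophage markers (Csf1r, Cd68, Lyz2 and others) were read in every group, with summed values of 129066 to 208803. Of these 8, 0 were higher and 3 lower in KO control cells, 1 and 4 with LPS, 2 and 4 with IFNg and 2 and 1 with IL4 (limma). Of all tested genes 4.11%, 9.70%, 4.83% and 6.14% were higher in that order, and 3.05%, 12.5%, 4.21% and 3.14% lower. The median log2 differences of the 8 markers were -0.17, -0.20, -0.18 and 0.047. Lyz2 was lower in all 4 conditions, by a log2 difference of -0.93 ± 0.071 (SE) in control. The summed level in KO and WT libraries was 129066 to 139238 and 136842 to 147567 in control, 152123 to 172877 and 167408 to 173542 with LPS, 149592 to 156620 and 166603 to 169068 with IFNg, and 206115 to 208803 and 199122 to 200857 with IL4, and the part of these shifts in the genotype differences below was not tested. Summed dendritic cell markers stayed between 4.08 and 39.8 in control, LPS and IL4 libraries and reached 666 to 848 with IFNg, mostly Clec9a, while Flt3 and Cd209a were at or near 0. Summed T and NK cell markers were 45.5 to 88.7 in control and IL4 libraries and 605 to 1376 with LPS or IFNg, almost all of it Lck, with Cd3e at 0 to 23.6 in all libraries. In bulk RNA, a change in the number of cells that carry a transcript and a change in transcript per cell cannot be told apart.

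Compared per kilobase of exon, Cd274 was the most abundant of the 8 genes in all 8 groups. Its level ran from 894 ± 20.3 normalised counts per kb in WT control to 38796 ± 2654 in KO LPS. Cd40 was the seventh of the 8 genes in both control groups, with 15.8 ± 4.30 per kb in WT, and the second with LPS and IFNg, with 13007 ± 159 per kb in WT LPS. Pdcd1lg2 was the lowest of the 8 in control and LPS cells and the second in IL4 cells, at 378 ± 20.9 per kb in WT. Havcr2 held the second rank in untreated cells, 122 ± 17.2 per kb in WT, and the seventh or eighth with LPS and IFNg. Each stimulus therefore came with its own order of these surface genes.

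**Figure D1:**
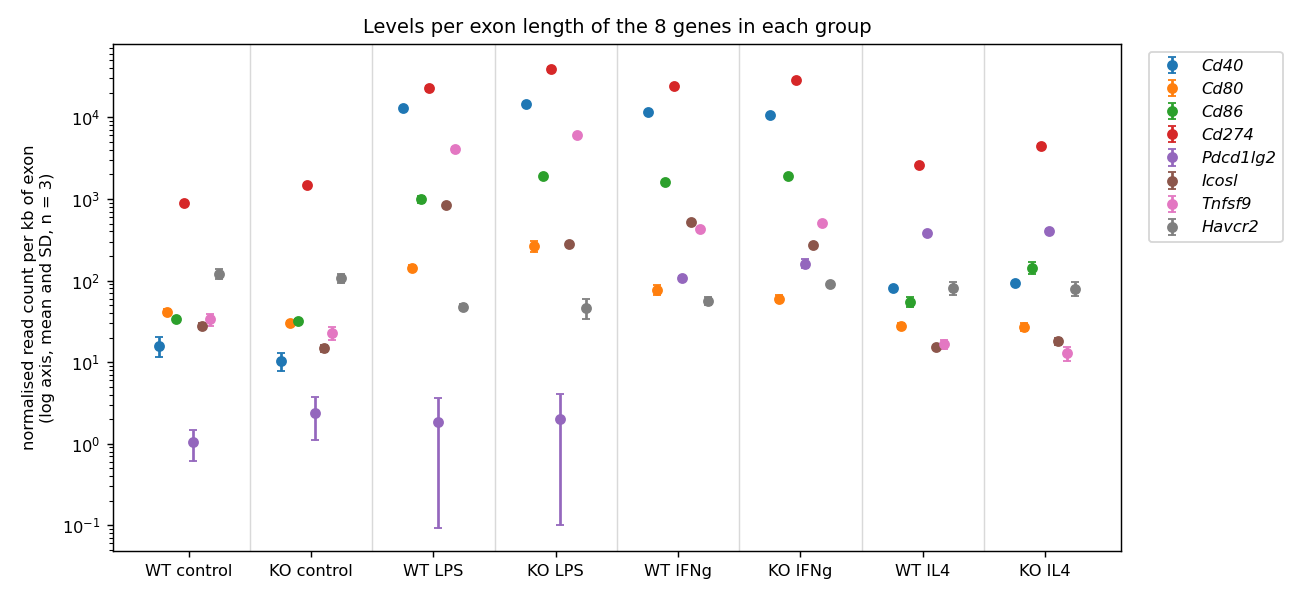
Mean normalised read count per kb of exon (log axis) of the 8 genes in each group, with bars of 1 SD over 3 libraries. Cd274 (red) is the highest point in all 8 groups, and Pdcd1lg2 (purple) rises from the lowest place in control and LPS cells to the second in IL4 cells.

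The genes were then compared between each treatment and the untreated control of the same genotype, by limma on log2(value + 1) with Benjamini-Hochberg adjustment over 18637 genes and a call at an adjusted p below 0.05. The 3 treatments share each genotype's control libraries. With LPS, 6 of the 8 genes rose and 1 fell in WT, where 25.5% of all tested genes rose and 27.8% fell. In KO again 6 rose and 1 fell, where 24.5% of all genes rose and 32.5% fell. With IFNg, 7 rose and 1 fell in WT (22.5% and 22.6% of all genes), and 7 rose and 0 fell in KO (22.3% and 23.7%). IL4 split the set: 4 rose and 4 fell in WT (10.6% and 9.56% of all genes), and 5 rose and 1 fell in KO (12.6% and 10.5%). Over the 8 genes the median log2 change in WT was 4.77 for LPS, 4.49 for IFNg and 0.066 for IL4, beside -0.062, 0 and 0 over all genes tested. Centring each library on its median gene moved the all-gene median to 0.36 with LPS and 0.32 with IFNg in WT, and in KO from -0.21 to 0.21 and from -0.075 to 0.25. The genes called by limma with LPS then went from 4759 higher and 5183 lower to 6823 and 3065 in WT and from 4571 and 6060 to 6326 and 3947 in KO, and with IFNg from 4201 and 4211 to 6107 and 2515 and from 4152 and 4420 to 6022 and 2564. Neutrophil markers moved with IL4 too: 5 of 7 tested fell in WT and 4 of 7 in KO, from summed levels of 1265 to 1504 and 1149 to 1270.3 in control to 497 to 621 and 269 to 323, with Ly6g at 0. With LPS 3 of 7 rose and 2 fell in WT and 4 rose and 0 fell in KO, and their part in the changes of the 8 genes was not tested.

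**Figure D2:**
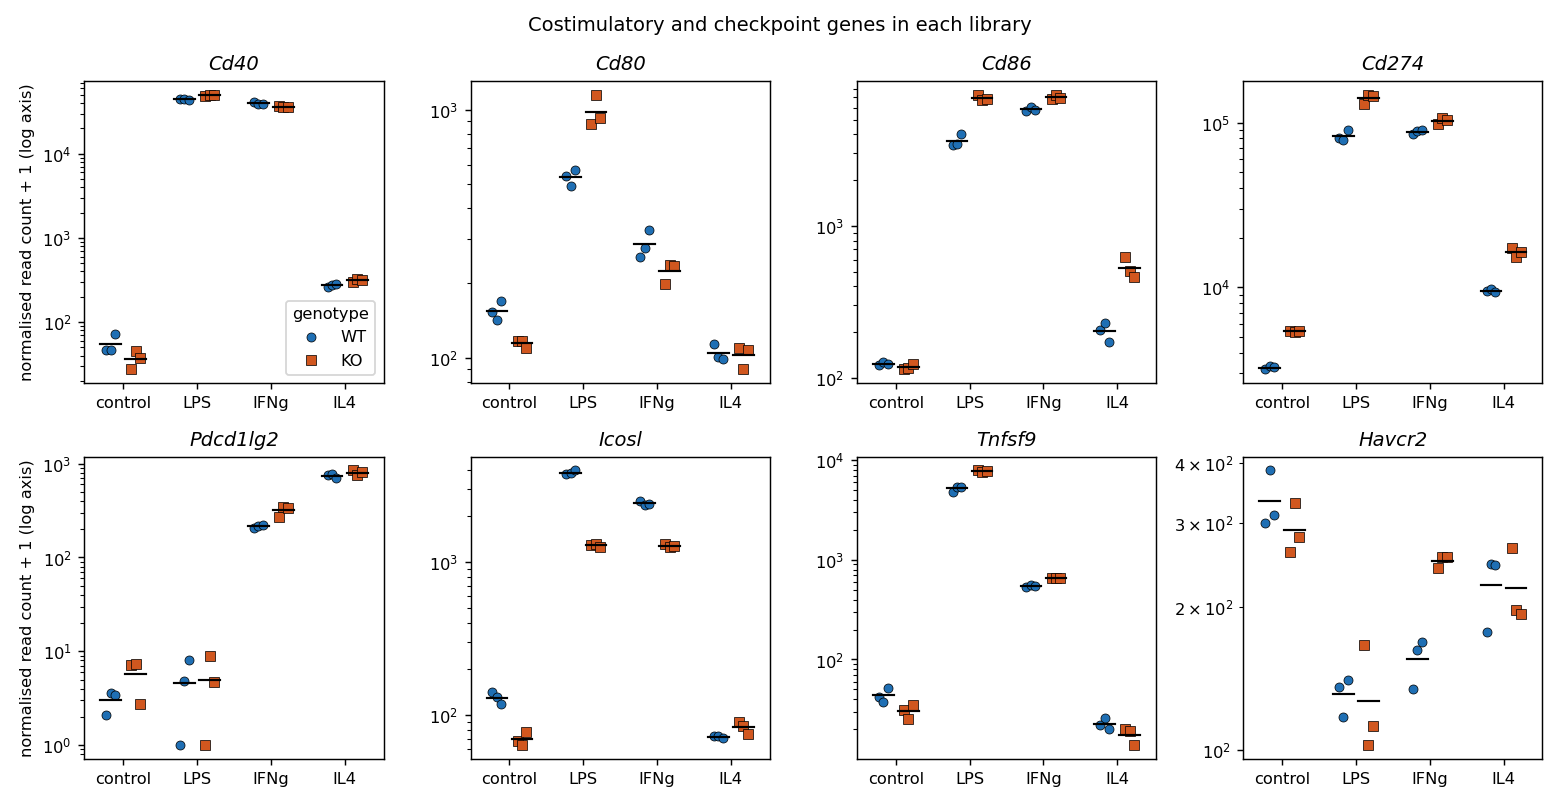
Normalised read count plus 1 (log axis) of each gene in each of the 24 libraries, with WT as circles, KO as squares and a bar at each group mean; each panel has its own range. LPS and IFNg libraries stand far above control for Cd40, Cd86, Cd274, Icosl and Tnfsf9, whereas Pdcd1lg2 is high with IFNg and IL4 alone and Havcr2 is highest in control cells.

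The PD-1 ligands Cd274 and Pdcd1lg2 lie side by side on chromosome 19 (GRCm38, GENCODE M21), at chr19:29367455-29388095 and chr19:29410919-29471161, both on the plus strand and 22823 bases apart. Both were called higher with IFNg and with IL4, by unlike amounts, and only Cd274 was called higher with LPS. The 250 bases before each start, from RefSeq (GRCm38.p6, plus strand, 5′ to 3′), are shown because of these differences. Capitals mark matches, on either strand, to a STAT6-type motif (TTC and GAA with any 4 bases between) or a kappaB motif (GGG and CC with any 5 bases between). The Cd274 window is chr19:29367188-29367437 and that of Pdcd1lg2 is chr19:29410669-29410918.
Cd274: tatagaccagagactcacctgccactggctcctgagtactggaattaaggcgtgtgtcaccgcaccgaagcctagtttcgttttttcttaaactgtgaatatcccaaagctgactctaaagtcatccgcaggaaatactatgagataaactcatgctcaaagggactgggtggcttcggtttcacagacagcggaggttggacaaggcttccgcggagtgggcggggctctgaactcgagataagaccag
Pdcd1lg2: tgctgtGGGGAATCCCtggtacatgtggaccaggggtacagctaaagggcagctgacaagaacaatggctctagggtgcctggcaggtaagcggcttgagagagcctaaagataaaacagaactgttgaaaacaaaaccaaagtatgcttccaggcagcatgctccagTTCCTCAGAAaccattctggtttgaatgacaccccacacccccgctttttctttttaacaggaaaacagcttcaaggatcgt
The Pdcd1lg2 window held 1 STAT6-type match, TTCCTCAGAA, 82 to 73 bases before the start, and 1 kappaB match, GGGGAATCCC, 244 to 235 bases before it. The Cd274 window held neither motif, nor the STAT motif (TTC and GAA with any 3 bases between) or the interferon-response core (a pair of GAAA with any 2 bases between), which says only that these letters are not in this window. Of 32851 mouse promoter windows of this length, 5.9% held the STAT6-type motif, 45.8% the kappaB motif, 7.0% the STAT motif and 3.0% the interferon-response core. A match is a stretch of letters and no evidence of binding.

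Cd274 was high in untreated cells and rose with every stimulus. Its 3 WT control libraries read 3155, 3294 and 3266, those with LPS 80106, 78608 and 89615, and those with IFNg 84661, 88544 and 89705. With IL4 they read 9491, 9687 and 9353. All 9 treated WT libraries lay above all 3 controls, and LPS and IFNg libraries overlapped. Group means were 25.6 times control with LPS, 27.1 times with IFNg and 2.94 times with IL4, or log2 changes of 4.67 ± 0.057, 4.76 ± 0.057 and 1.55 ± 0.057 (SE; limma, adjusted p = 7.7e-27, 9.8e-27 and 2.5e-16). KO cells rose 26.1 times with LPS, 19.1 times with IFNg and 3.02 times with IL4. Of the exon bases of Cd274, 511 of 3622 are shared with a gene on the other strand, and the strand used in counting is not given in the sources used here.

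Pdcd1lg2 was nearly silent without IFNg or IL4. Each of the 6 control libraries held 1 to 10 reads of it and each of the 6 LPS libraries 0 to 13, so values there are known only roughly. KO LPS replicate 1 and WT LPS replicate 1 held none, which allows values of up to 70.9 and 12.2 (3 reads). WT control read 1.08, 2.58 and 2.44 and WT LPS 0, 3.80 and 7.14, which overlap, and the LPS change was not called in WT (limma, adjusted p = 0.82) or KO (0.46). With IFNg the WT libraries read 206, 216 and 219 and with IL4 750.0, 778 and 697. Both stimuli lifted it far out of the control range, and every IL4 library stood above every IFNg library. Log2 changes in WT were 6.19 ± 0.63 with IFNg and 7.98 ± 0.63 with IL4 (SE; limma, adjusted p = 8.2e-09 and 4e-10), sizes that depend on the pseudocount because the control rests on few reads. In KO cells they were 5.92 ± 0.63 and 7.26 ± 0.63.

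The balance of the 2 PD-1 ligands therefore depended on the stimulus. Per kb of exon, Cd274 exceeded Pdcd1lg2 by a factor of 222 ± 0.166 in WT IFNg libraries and by 6.95 ± 0.275 in WT IL4 libraries (SD, n = 3). In KO libraries the factors were 177 ± 15.4 and 11.0 ± 0.0485. The 3 KO values lay below the 3 WT values with IFNg and above them with IL4.

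Cd86 and Cd80, the CD28 and CTLA-4 ligands, lie 1789479 bases apart on chromosome 16 (Cd86 at chr16:36603869-36666081, minus strand, and Cd80 at chr16:38455561-38496335, plus strand) and responded to very different degrees. Cd86 in WT control libraries read 121, 126 and 122. With LPS it read 3396, 3467 and 3994, and with IFNg 5671, 6023 and 5818. It was thus low at rest, and every IFNg library exceeded every LPS library. With IL4 it read 205, 229 and 172 in WT and 621, 502 and 463 in KO, so that IL4 raised it in both genotypes. WT means rose 29.4 times with LPS, 47.4 times with IFNg and 1.64 times with IL4 (log2 4.86 ± 0.093, 5.55 ± 0.093 and 0.70 ± 0.093, SE; limma, adjusted p = 3.4e-23, 5e-24 and 2.8e-06). KO means rose 59.2, 59.8 and 4.51 times.

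Cd80 changed by less. WT control read 152, 141 and 169, WT LPS 538, 492 and 570.0 and WT IFNg 253, 277 and 327. These groups did not overlap, and LPS stood highest. The log2 change in WT was 1.79 ± 0.13 with LPS and 0.89 ± 0.13 with IFNg (SE; limma, adjusted p = 8.9e-12 and 2.2e-06). IL4 libraries read 112, 99.6 and 98.0 in WT, all below control (log2 -0.57 ± 0.13, adjusted p = 0.0017), and 108, 88.5 and 106 in KO, where the groups overlapped and the change was not called (-0.17 ± 0.13, adjusted p = 0.45). Per kb, the ratio of Cd86 to Cd80 went from 0.817 ± 0.0885 in WT control to 6.87 ± 0.419 with LPS, 20.9 ± 2.54 with IFNg and 1.98 ± 0.299 with IL4. Cd80 was the more abundant in WT control, Cd86 in each treated group.

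Icosl, the ICOS ligand (chr10:78069302-78083913, plus strand), rose with LPS and IFNg and had the largest reduction of the 8 genes in KO control, LPS and IFNg cells. Its promoter window is shown for that reason, from RefSeq (GRCm38.p6, chr10:78069118-78069367, plus strand, 5′ to 3′), with capitals at its 2 kappaB matches.
Icosl: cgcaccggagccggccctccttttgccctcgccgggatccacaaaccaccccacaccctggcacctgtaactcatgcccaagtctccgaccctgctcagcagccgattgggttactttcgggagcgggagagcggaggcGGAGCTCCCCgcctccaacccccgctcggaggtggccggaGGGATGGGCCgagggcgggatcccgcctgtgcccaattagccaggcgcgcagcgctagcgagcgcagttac
The matches, GGAGCTCCCC and GGGATGGGCC on either strand, lie 111 to 102 and 71 to 62 bases before the start, and the window held none of the other 3 motifs. WT control libraries read 140.2, 129.6 and 117 and KO control libraries 66.8, 62.7 and 76.3. LPS libraries read 3738, 3837 and 3969 in WT and 1299, 1318 and 1259 in KO, and IFNg libraries 2513, 2362 and 2381 and 1306, 1246 and 1265. In each of these 3 conditions every KO library lay below every WT library. IL4 libraries read 72.6, 72.1 and 69.7 in WT and 89.8, 84.6 and 74.5 in KO, the one condition in which KO was the higher. In WT, Icosl rose 29.8 times with LPS and 18.7 times with IFNg, and fell with IL4 (log2 4.89 ± 0.084, 4.22 ± 0.084 and -0.84 ± 0.084, SE; limma, adjusted p = 3.9e-24, 1.3e-22 and 2.9e-08). In KO cells the IL4 change went the other way (0.27 ± 0.084, adjusted p = 0.02) with overlapping libraries, and that call was lost without KO control replicate 1 (0.067) or 2 (0.12) or KO IL4 replicate 1 (0.12) or 2 (0.059), by DESeq2 (0.056) and in a fit of the compared groups alone (0.17), and the adjusted p ranged from 0.0045 to 0.17 over 16 alternatives.

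Tnfsf9, the 4-1BB ligand (chr17:57105325-57107757, plus strand), was far higher with LPS than with IFNg. WT control libraries read 41.0, 36.8 and 51.3, LPS libraries 4798, 5429.9 and 5423 and IFNg libraries 539, 557 and 546. Every LPS library stood far above every IFNg library, and every IFNg library far above control. The WT mean rose 121 times with LPS and 12.7 times with IFNg (log2 6.90 ± 0.14 and 3.65 ± 0.14, SE; limma, adjusted p = 1.8e-22 and 1.1e-16). With IL4 it fell to 20.8, 24.6 and 18.8 (log2 -0.97 ± 0.14, adjusted p = 1.3e-05), and in KO cells to 18.9, 18.2 and 12.8 (-0.79 ± 0.14, adjusted p = 0.00015; 1.1e-07 to 0.058 over 16 alternatives, lost with the compared groups alone). The 192 exon bases it shares with a gene on the other strand, of 1290, could carry reads of either gene.

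Cd40, the receptor for CD40L (chr2:165055627-165072948, plus strand), had the largest rise of the 8 genes with LPS and with IFNg in both genotypes. WT control libraries read 45.8, 45.1 and 70.8, LPS libraries 44812, 44362 and 43734 and IFNg libraries 41240.1, 39098 and 39453. The WT mean rose 821 times with LPS and 740.4 times with IFNg, and the KO mean 1397 and 1022 times. Control counts were 29 to 85 reads per library, which limits the precision of these ratios. IL4 raised it to 263, 273 and 285 in WT and 301, 328 and 313 in KO (log2 2.35 ± 0.13 and 3.14 ± 0.13, SE; limma, adjusted p = 6.5e-13 and 1.7e-15). All 8 groups of Cd40 were ordered without overlap between neighbours: KO LPS, WT LPS, WT IFNg, KO IFNg, KO IL4, WT IL4, WT control and KO control.

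Havcr2, encoding TIM-3 (chr11:46454935-46481255, plus strand), unlike the other genes had its highest mean in untreated cells, and its lowest was with LPS. Its fall with IL4 in WT was shared by Cd80, Icosl and Tnfsf9. For Havcr2, WT control libraries read 299, 385 and 310.2, LPS libraries 135, 116 and 139, IFNg libraries 134, 161 and 167 and IL4 libraries 176, 245 and 243. Every treated WT library lay below every WT control library. Log2 changes in WT were -1.34 ± 0.17, -1.10 ± 0.17 and -0.59 ± 0.17 (SE; limma, adjusted p = 4e-07, 9.4e-06 and 0.016). The IL4 call was lost without WT control replicate 2 (0.1) or WT IL4 replicate 1 (0.13) and in a fit of the compared groups alone (0.064), and the adjusted p ranged from 0.00015 to 0.13 over 16 alternatives. In KO cells LPS lowered it too (-1.22 ± 0.17, adjusted p = 1.6e-06). With IFNg the KO change was -0.21 ± 0.17 (adjusted p = 0.37; log2 change 0.12 with median centring) and was not called. With IL4 it was -0.42 ± 0.17, not called by limma (adjusted p = 0.095) but called a fall by edgeR (0.021), DESeq2 (0.037), limma with library weights (0.013) and without KO IL4 replicate 1 (0.035), with a range of 0.013 to 0.33 over 16 alternatives.

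The genotypes were compared next within each condition. KO and WT libraries did not overlap for 5, 6, 8 and 4 of the 8 genes in control, LPS, IFNg and IL4 cells, beside 23.4%, 24.3%, 27.9% and 32.3% of all genes tested. In untreated cells 1 of the 8 genes was higher in KO and 4 were lower, where 4.11% of all tested genes were higher and 3.05% lower (766 and 568 genes, or 922 and 369 with median centring). Of 7 tested neutrophil markers 0 were higher and 3 lower in KO, and their part in these differences was not tested. Cd274 read 5399, 5365 and 5405 in KO against 3155, 3294 and 3266 in WT, a mean 1.66 times higher (log2 0.74 ± 0.057, SE; limma, adjusted p = 2.4e-09). Icosl was lower, with a KO mean of 68.6 ± 6.96 against 129 ± 11.5 (log2 -0.90 ± 0.084, adjusted p = 4.9e-08). Both differences separated all 3 KO from all 3 WT libraries and kept their call under all 16 alternatives. Cd40 read 26.3, 43.9 and 36.0 in KO (log2 -0.59 ± 0.13, adjusted p = 0.0041), Cd80 115, 116 and 108 (-0.44 ± 0.13, 0.036) and Tnfsf9 30.0, 24.05 and 34.2 (-0.53 ± 0.14, 0.022), each without overlap with WT. Median centring ended the calls of Cd80 (0.16) and Tnfsf9 (0.062), edgeR and DESeq2 that of Tnfsf9 (0.12 each), and a limma fit of the compared groups alone those of Cd40 (0.33), Tnfsf9 (0.24) and Cd80 (0.05). That of Cd80 was lost without WT control replicate 1 (0.087) or 3 (0.18) or KO control replicate 1 (0.083), 2 (0.076) or 3 (0.13), that of Tnfsf9 without WT control replicate 3 (0.16) or KO control replicate 2 (0.17), and that of Cd40 without KO control replicate 1 (0.051), with ranges of 0.0071 to 0.18, 0.0082 to 0.24 and 2.3e-05 to 0.33 over 16 alternatives each. Cd86 (log2 interval -0.27 to 0.12 at 95%), Havcr2 (-0.56 to 0.16) and Pdcd1lg2 (-0.47 to 2.12; adjusted p = 0.016 with library weights, in a range of 0.016 to 0.94) were not called.

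**Figure D3:**
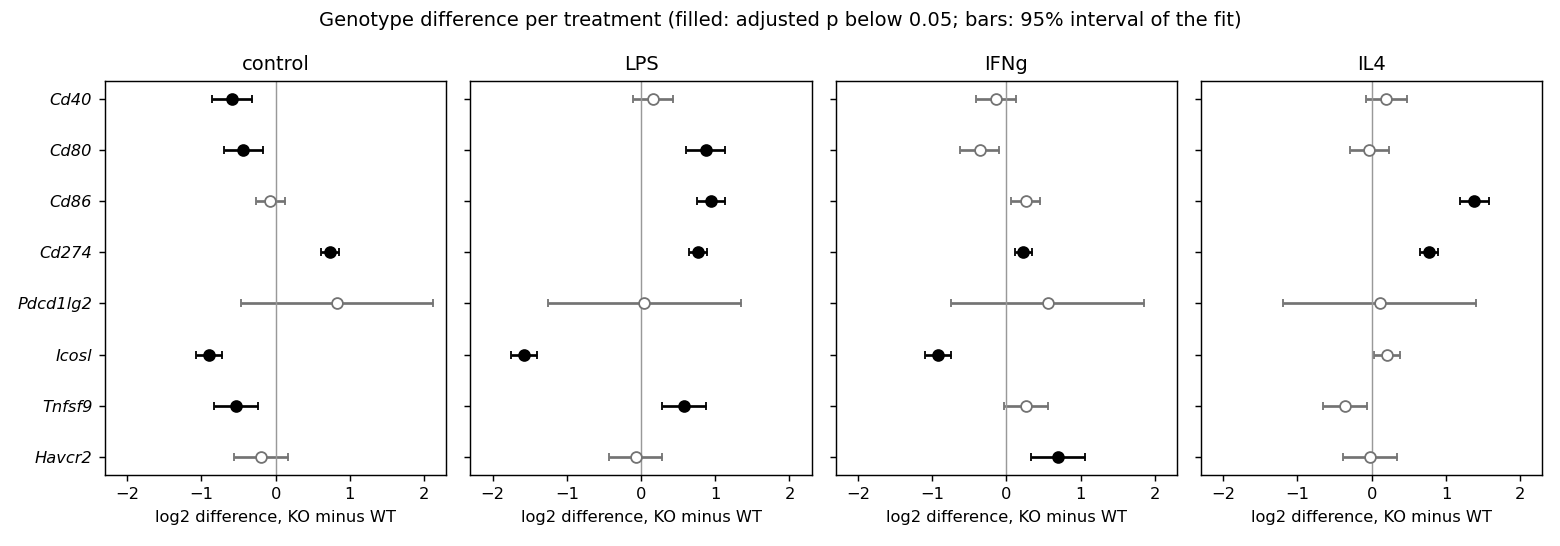
Log2 difference between KO and WT (x axis) of each gene in each condition, with 95% intervals of the fit; filled points have an adjusted p below 0.05. Cd274 lies to the right of 0 and called in all 4 panels, Icosl to the left and called in control, LPS and IFNg, and Cd86 has its largest difference with IL4, 1.38.

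With LPS 4 of the 8 were higher in KO and 1 lower, where 9.70% of all genes were higher and 12.5% lower. That balance of all genes turned with the scaling, from 1808 higher and 2333 lower to 2162 and 1554 with median centring, 1887 and 1656 by edgeR and 1932 and 1629 by DESeq2, while the 5 calls among the 8 genes were made under each of these. The higher genes were the ligands Cd274, Cd86, Cd80 and Tnfsf9. Cd86 read 7277, 6680.3 and 6858 in KO against 3396, 3467 and 3994 in WT (log2 0.94 ± 0.093, SE; limma, adjusted p = 5.8e-08), and Cd80 874, 1150.1 and 924 against 538, 492 and 570.0 (0.87 ± 0.13, adjusted p = 1.5e-05). Cd274 read 129561, 147525 and 144472 in KO (0.76 ± 0.057, adjusted p = 5.5e-10) and Tnfsf9 7914, 7638 and 7784 (0.58 ± 0.14, adjusted p = 0.0049). In all 4, each KO library exceeded each WT library. Icosl went the other way: its KO mean of 1292 ± 30.1 was 2.98 times below the WT mean of 3848 ± 116 (log2 -1.57 ± 0.084, adjusted p = 1.6e-12). Cd40 differed little in size, with 48668, 50144 and 49549 in KO against 44812, 44362 and 43734 in WT, no overlap and no call by limma (95% interval -0.11 to 0.43; called by DESeq2, log2 0.16, adjusted p = 0.00011, in a range of 0.00011 to 0.54 over 16 alternatives), and Havcr2 (-0.43 to 0.29) and Pdcd1lg2 (-1.25 to 1.34) were not called. The shallow KO LPS replicate 1 held 37 reads of Cd80, 55 of Icosl and 308 of Cd86. Without it the 5 calls were kept, with log2 differences of 0.91 for Cd86, 0.95 for Cd80, 0.82 for Cd274, 0.57 for Tnfsf9 and -1.58 for Icosl.

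With IFNg 2 of the 8 were higher in KO and 1 lower, where 4.83% of all genes were higher and 4.21% lower (901 and 785 genes, or 1134 and 442 with median centring). Icosl again was lower, 1272 ± 30.9 in KO against 2419 ± 82.3 in WT (log2 -0.93 ± 0.084, SE; limma, adjusted p = 2.7e-08). Cd274 read 97586, 106835 and 103922 in KO against 84661, 88544 and 89705 in WT (0.23 ± 0.057, adjusted p = 0.0097). Havcr2 read 241, 253 and 253 against 134, 161 and 167 (0.69 ± 0.17, adjusted p = 0.0099), the one condition in which the TIM-3 gene differed between the genotypes by the test. All 8 genes separated KO from WT libraries here without overlap, as did 27.9% of all genes. Cd86, Pdcd1lg2 and Tnfsf9 were higher in KO and Cd40 and Cd80 lower. Their adjusted p were 0.092, 0.76, 0.37, 0.69 and 0.087, so none of these 5 was called by limma. Over 16 alternatives they ranged from 0.01 to 0.25, 2.7e-06 to 0.86, 0.0019 to 0.57, 0.00074 to 0.9 and 0.0055 to 0.4. The main fit takes 1 spread per gene over all 8 groups. For Pdcd1lg2 (SE 0.63) that includes control and LPS libraries with 0 to 13 reads, against 160 to 615 with IFNg. With the compared groups alone limma called Pdcd1lg2 (0.028). On the recovered reads the count tests called more genes, 7 of the 8 by edgeR, where 13.6% of all genes were called, and all 8 by DESeq2, where 17.6% of 14662 genes with an adjusted p were called. The Cd274 call was lost in a fit of the compared groups alone (0.067) and without WT IFNg replicate 1 (0.06) or KO IFNg replicate 2 (0.057) and the Havcr2 call without WT IFNg replicate 1 (0.072), with ranges of 0.00017 to 0.067 and 9.3e-05 to 0.072 over 16 alternatives.

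With IL4 2 of the 8 were higher in KO and 0 lower, where 6.14% of all genes were higher and 3.14% lower. Cd86 read 621, 502 and 463 in KO against 205, 229 and 172 in WT, a mean 2.62 times higher (log2 1.38 ± 0.093, SE; limma, adjusted p = 7.4e-11). Cd274 read 17212, 15277 and 16361 against 9491, 9687 and 9353, a mean 1.71 times higher (0.77 ± 0.057, adjusted p = 3.9e-10). The IL4-responsive Pdcd1lg2 read 844, 746 and 806 in KO, overlapping WT (95% interval -1.19 to 1.40, from the spread over all 8 groups). It was called under none of 16 alternatives. Icosl in KO stood above WT without overlap but was not called (0.21 ± 0.084, adjusted p = 0.15), nor by limma were Cd40 (-0.074 to 0.47; called by DESeq2, adjusted p = 0.017, in a range of 0.017 to 0.72), Cd80 (-0.30 to 0.23), Tnfsf9 (-0.65 to -0.057; called with library weights, 0.0018, in a range of 0.0018 to 0.63) or Havcr2 (-0.38 to 0.34). In the same libraries 5 of 7 tested neutrophil markers were lower in KO, with a summed level of 269 to 323 in KO and 497 to 621 in WT and Ly6g at 0 in both. Their part in the Cd86 and Cd274 differences was not tested.

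Whether the response to a stimulus itself differed between the genotypes was tested as an interaction, the KO change minus the WT change on the log2 scale, and 10 of 24 such differences were called. With LPS, where the KO change was called higher for 4.29% of all genes and lower for 4.50%, it was higher for Cd80 (1.31 ± 0.18, SE; limma, adjusted p = 2.2e-05), Tnfsf9 (1.11 ± 0.20, 0.00064), Cd86 (1.01 ± 0.13, 1e-05) and Cd40 (0.75 ± 0.19, 0.01), and lower for Icosl (-0.67 ± 0.12, 0.00045). Cd40 was called lower in KO control and was not called between the genotypes under LPS, and its interaction was lost in a fit of the compared groups alone (adjusted p = 0.15; 0.001 to 0.15 over 22 alternatives). Cd274 rose by nearly the same log2 amount in both genotypes, with an interaction of 0.028 and a 95% interval of -0.14 to 0.20.

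With IFNg the KO change was called higher for 1 of the 8 and lower for 1 (1.32% and 1.18% of all genes). Cd274 rose less in KO cells (-0.51 ± 0.081, SE; limma, adjusted p = 0.00033). Tnfsf9 rose more (0.79 ± 0.20, adjusted p = 0.033), a call lost without WT control replicate 1 or 3, KO control replicate 1 or 2, or any 1 of the 6 IFNg libraries (adjusted p from 0.051 to 0.12; 0.0073 to 0.12 over all 22 alternatives). Cd86 was called with library weights (0.03) or the compared groups alone (0.017) and Cd40 with library weights (0.031), with ranges of 0.017 to 0.53 and 0.031 to 0.79. Havcr2 missed the threshold (0.89 ± 0.25, adjusted p = 0.055), with a range of 0.0008 to 0.18 over 22 alternatives. With IL4 it was called higher for 3 of the 8 and lower for 0 (2.45% and 1.15% of all genes, or 457 and 215, against 515 and 410 by edgeR): Cd86 (1.45 ± 0.13, 4.3e-08), Icosl (1.11 ± 0.12, 5.7e-07) and Cd40 (0.79 ± 0.19, 0.013) had the higher KO change. That of Cd40 was again lost in a fit of the compared groups alone (adjusted p = 0.16; 0.00012 to 0.16 over 22 alternatives). For Icosl it was a fall in WT against a small rise in KO.

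**Figure D4:**
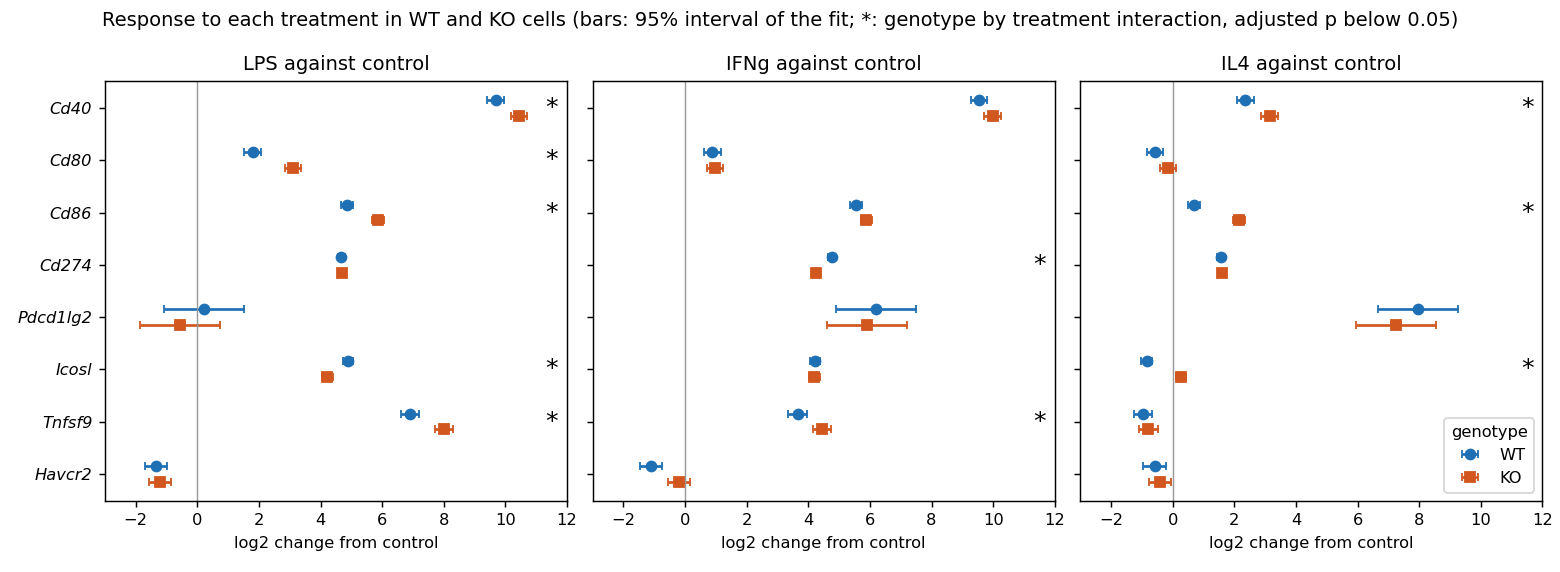
Log2 change from control (x axis) of each gene with LPS, IFNg and IL4 in WT (circles) and KO (squares), with 95% intervals of the fit; an asterisk marks an interaction of genotype and treatment with an adjusted p below 0.05. With LPS the KO points lie right of the WT points for Cd40, Cd80, Cd86 and Tnfsf9 and left for Icosl, and the 2 Cd274 points coincide within their intervals.

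The receptors that these proteins meet on T cells were looked up as well, since their transcripts would also show T cells. Cd40lg, Ctla4, Pdcd1 and Icos were at or near 0, with highest values over the 24 libraries of 0.633, 3.39, 2.38 and 8.33. Cd28, in contrast, was well read in untreated cells, 4914 ± 246 in WT, and fell to 232 ± 21.7 with LPS, 123 ± 24.3 with IFNg and 1741 ± 42.8 with IL4 (log2 -4.40 ± 0.11, -5.32 ± 0.11 and -1.50 ± 0.11, SE; limma, adjusted p = 1.2e-20, 4.3e-22 and 2e-10). The order of its WT means was the reverse of that of Cd86, and in KO it was higher with IFNg (0.58 ± 0.11, adjusted p = 0.00095) and IL4 (0.48 ± 0.11, adjusted p = 0.0053). Tnfrsf9, the 4-1BB receptor for the Tnfsf9 product, rose with LPS in WT to 163, 215 and 228 and in KO to 47.3, 43.7 and 31.3, the first of these from 2 reads. The KO level was lower (log2 -2.29 ± 0.54, adjusted p = 0.0031), while Tnfsf9 itself was higher.

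Other ligands of the same kinds were counted in lists chosen for their function. Beside the counts between the genotypes stand the shares of all tested genes, which in control, LPS, IFNg and IL4 cells were 4.11%, 9.70%, 4.83% and 6.14% higher in KO and 3.05%, 12.5%, 4.21% and 3.14% lower, with median log2 differences of 0, -0.059, -0.025 and 0. Of 13 other costimulatory ligands tested, 10 rose and 1 fell with LPS in WT (25.5% and 27.8% of all genes), led by Icam1, the ligand of the integrin LFA-1, from 502 ± 29.1 to 89575 ± 4226, and Tnfsf15 (TL1A), from 18.4 ± 3.30 to 2657 ± 261. With IFNg 5 rose and 3 fell (22.5% and 22.6% of all genes), and with IL4 4 rose and 3 fell (10.6% and 9.56%). Between the genotypes 3, 5, 3 and 4 of the 13 were higher in KO in control, LPS, IFNg and IL4 cells, and 1, 0, 0 and 0 lower, with list medians of 0, 0.44, 0.55 and 0.43. Under LPS, Tnfsf15 stood at 14012 ± 933 in KO and 2657 ± 261 in WT (log2 ratio 2.40 ± 0.15, SE; limma, adjusted p = 2.5e-11), and was also higher with IFNg (1.29 ± 0.15, adjusted p = 1.3e-06). Icam1 was lower in KO control (-0.45 ± 0.058, adjusted p = 6.9e-06) and higher in KO with LPS (0.44 ± 0.058, 3.6e-06) and IL4 (0.31 ± 0.058, 0.00063).

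Of 14 tested coinhibitory ligands and related factors, 2, 2, 2 and 4 were higher in KO in control, LPS, IFNg and IL4 cells and 2, 3, 3 and 3 lower, with medians of -0.14, 0.044, -0.15 and 0.063. Lgals9, whose galectin-9 is among the ligands described for TIM-3, was higher in KO with IL4, 3632 ± 128 in KO and 1685 ± 58.3 in WT (log2 ratio 1.11 ± 0.053, SE; limma, adjusted p = 1.2e-13), and with IFNg (0.44 ± 0.053, adjusted p = 2.1e-06). Vsir, encoding the checkpoint ligand VISTA, was higher in KO control (0.54 ± 0.056, adjusted p = 2.2e-07) and IL4 cells (0.38 ± 0.056, 2.6e-05). The anti-inflammatory cytokine Il10 was lower in KO with LPS (-1.68 ± 0.48, adjusted p = 0.013).

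MHC class II molecules present the antigen to which these second signals are added. Of 15 genes for class II and its loading, 1 was higher and 7 lower in KO control cells, 1 and 7 with LPS, 2 and 7 with IFNg, and 1 and 4 with IL4, where 3.05%, 12.5%, 4.21% and 3.14% of all genes were lower. The list medians were -0.38, -0.41, -0.40 and -0.13. Ciita, the master regulator of class II, was lower in control (-0.79 ± 0.095, SE; limma, adjusted p = 2.3e-06), as were H2-Ab1 (-0.70 ± 0.10, 2.6e-05) and Cd74 (-0.57 ± 0.083, 3.5e-05). H2-Eb1 was lower with LPS (-0.55 ± 0.089, 5.1e-05), IFNg (-0.62 ± 0.089, 2.2e-05) and IL4 (-0.59 ± 0.089, 3.8e-05), whereas the protease gene Ctss was higher with IFNg (0.40 ± 0.057, 2e-05) and IL4 (0.39 ± 0.057, 2.9e-05). In the same KO IL4 libraries Cd86 and Cd274 were higher.

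The signalling genes upstream were also counted. Of 13 genes from the IFN-gamma receptor to IRF1, 3 were higher and 1 lower in KO control cells, 4 and 3 with LPS, 1 and 2 with IFNg, and 8 and 1 with IL4, where 6.14% and 3.14% of all genes were higher and lower. The list medians were 0.066, 0.10, 0.022 and 0.24 in that order of conditions. With IL4 these included Stat2 (1.07 ± 0.062, SE; limma, adjusted p = 4e-12), Irf1 (0.75 ± 0.056, 4.9e-10) and Irf9 (0.71 ± 0.056, 1.3e-09). Irf8 was higher in KO with LPS, 32478 ± 1830.4 in KO and 7521 ± 209.7 in WT (log2 ratio 2.11 ± 0.054, adjusted p = 1.5e-18). The receptor gene Ifngr1 was lower in KO control (-0.49 ± 0.065, limma, adjusted p = 1e-05) and IFNg cells (-0.58 ± 0.065, 6.5e-07). Ifngr2 was lower in KO with LPS (-0.36 ± 0.037, limma, adjusted p = 7.9e-08) and Stat3 with IFNg (-0.23 ± 0.057, 0.01). Of 20 genes of CD40 and NF-kB signalling, 2 were higher and 2 lower in KO control, 6 and 3 with LPS, 2 and 3 with IFNg, and 2 and 0 with IL4 (medians -0.0013, 0.038, 0.026 and 0.012). Traf1, a CD40 adaptor, was lower in KO with LPS (-0.56 ± 0.075, adjusted p = 5.3e-06) and IFNg (-0.70 ± 0.075, 3.3e-07). Other genes of this list were higher in KO: Tnfaip3 in control (0.33 ± 0.046, limma, adjusted p = 1.9e-05), Rela with LPS (0.51 ± 0.094, 0.00031) and Traf3 with IFNg (0.46 ± 0.060, 6.4e-06). Birc3 was higher in KO with IL4 (0.29 ± 0.053, limma, adjusted p = 0.0004) and lower with IFNg (-0.28 ± 0.053, 0.00066). Of 10 genes from the IL-4 receptor to STAT6, 1, 3, 3 and 2 were higher and 1, 2, 2 and 0 lower (medians 0.076, 0.083, -0.013 and -0.044), and Il13ra1 was higher in KO in all 4 conditions, by 1.08 ± 0.083 with IL4 (adjusted p = 8e-10). Il4ra was lower in KO control (-0.36 ± 0.086, limma, adjusted p = 0.0078), LPS (-0.70 ± 0.086, 1.7e-06) and IFNg cells (-0.41 ± 0.086, 0.002). Il2rg was lower in KO with IFNg (-0.37 ± 0.053, limma, adjusted p = 2.4e-05).

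Surface levels also depend on turnover, and of 9 genes for it 2, 2, 1 and 2 were higher in KO in control, LPS, IFNg and IL4 cells and 0, 3, 1 and 1 lower, with medians of 0.030, -0.073, -0.097 and -0.028. The shares of all genes were 4.11%, 9.70%, 4.83% and 6.14% higher and 3.05%, 12.5%, 4.21% and 3.14% lower. March1, a ubiquitin ligase that removes CD86 and class II from the surface, was higher in KO control (0.49 ± 0.072, SE; limma, adjusted p = 3.6e-05), IFNg (0.72 ± 0.072, 1.1e-07) and IL4 cells (0.90 ± 0.072, 1.3e-09). Cmtm6, which keeps PD-L1 on the surface, was higher in KO with LPS (0.27 ± 0.052, 0.00047), as was Cd83, which protects CD86 from March1 (0.47 ± 0.056, 7.7e-07). With IL4, Cd83 was lower in KO (-0.18 ± 0.056, limma, adjusted p = 0.048). Protein levels were not measured.

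For each of the 8 genes, the 3 transcripts with the most similar pattern were found by Pearson's r of log2(value + 1) over the 24 libraries, among 9634 genes. These libraries fall into 8 groups, so r describes a pattern over treatments and is given without a test. Cd40 was most like Nfkbie (r = 0.998), Icam1 (0.998) and Rab20 (0.997), and Cd86 most like the IFN-inducible GTPase genes Irgm1, Gbp9 and Ifi47 (0.996 each). Cd274 was closest to Msn, Rbl1 and Gbp3 (0.995 each), Tnfsf9 to Cmtm6, Sbds and Eif1 (0.993 to 0.994), and Icosl to Mtmr6, Bid and Cds1 (0.985 to 0.990). Cd80 was closest to Klf8, Rasa2 and Pcgf3 (0.980 to 0.984). Pdcd1lg2 had looser neighbours in Thyn1 (0.945) and Pbxip1 (0.932), and Havcr2 in Dnmt3aos, Hmces and Zfp61 (0.888 to 0.897). Among the 8 themselves, Cd86 and Cd274 were most alike (0.987), and Havcr2 had a negative r with each of the others except Pdcd1lg2 (0.073).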

How the data were processed

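RNA was sequenced from 24 libraries, 3 in each of 8 groups. The deposited signal is a gene's read count divided by the authors' size factor for the library; 100% of values were whole multiples of 1 read's value within 0.05 reads. Alignment with TopHat2 2.2.1 to mm10 (GRCm38) and use of Cufflinks 2.2.1 and Cuffdiff are named per the submitters' processing notes; annotation and counting strand are not given in the sources used here. The 18637 of 43629 genes that reached a value of 1 in 3 or more libraries were fitted as log2(value + 1) with limma 3.58.1 in R 4.3.3 (trend, 1 mean per group, 16 residual degrees of freedom; Benjamini-Hochberg adjusted p below 0.05). A log2 change on this scale understates the change of low genes. Alternatives were pseudocounts of 0.5 and 10, no filter, a mean of at least 10, median centring, library weights, a replicate block, the compared groups alone, each library left out, edgeR 4.0.16 with TMM and DESeq2 1.42.0 on the recovered reads. Over the 13 comparisons edgeR called 587 to 10841 genes and DESeq2 849 to 10111. On counts simulated for KO against WT in LPS cells (18136 genes), limma recovered 74% of 1.5-fold and 88% of 2-fold changes. The simulation used 1 fixed dispersion for all genes and placed changes only in genes with a mean of at least 50. It does not measure how well changes of the 8 genes are found.

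Positions and exon lengths came from GENCODE M21 (GRCm38), and promoter windows, held for 5 of the 8 genes, from RefSeq. The 8 genes and all lists were chosen with earlier results of these data known. All 8 genes are named in each comparison, from each list at most the 3 called genes with the smallest adjusted p per comparison, and for each of the 8 genes the 3 transcripts with the highest r among those with a mean of at least 50, of which 1 for Pdcd1lg2 is not reported here; Cd3e, Lck, Clec9a and receptors at or near 0 were named after their values were seen. Replicate numbers were not taken as pairs: deviations of libraries with the same number correlated at -0.47 to 0.39 over 84 pairs. Within each group no libraries were duplicates (chi-square per degree of freedom 2.08 to 26.6 over 24 pairs), and libraries of different groups were not compared in this way. The 95% intervals rest on the spread between libraries in the limma fit, whereas floors of 3 reads cover counting error only.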

Additional observations from a re-analysis of the deposited data

Results flagged for a closer look

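For 10 of the 24 pairings of gene and stimulus, the response differed between the genotypes by the interaction test of limma, as the KO change minus the WT change in log2. With LPS these were Cd40 (0.75, adjusted p = 0.01), Cd80 (1.31, 2.2e-05), Cd86 (1.01, 1e-05), Icosl (-0.67, 0.00045) and Tnfsf9 (1.11, 0.00064). With IFNg they were Cd274 (-0.51, adjusted p = 0.00033) and Tnfsf9 (0.79, 0.033). With IL4 they were Cd40 (0.79, adjusted p = 0.013), Cd86 (1.45, 4.3e-08) and Icosl (1.11, 5.7e-07). Of all tested genes, the KO change was called higher for 4.29% and lower for 4.50% with LPS. With IFNg these shares were 1.32% and 1.18%, and with IL4 2.45% and 1.15%. The 3 interactions of a gene share the control libraries of both genotypes.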

How the results depend on the processing

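Of 1808 values of the 8 genes under alternative settings, 1697 kept their direction and side of the threshold, 42 lost a call, 32 gained one and 37 changed sign; none of the sign changes was of a called value, and the cause of these shifts was not tested. All 18637 genes were fitted in each alternative save the filters. DESeq2 gave an adjusted p for fewer, 14662 for KO against WT with IFNg. In control cells median centring left 3 of the 8 genes called between the genotypes and the compared groups alone 2; with IFNg library weights and the compared groups alone called 5 each, edgeR 7 and DESeq2 8. For the IFNg interaction the numbers were 5 with library weights and 4 with the compared groups alone. Library weights called 3063 genes in control, 3512 with IFNg, 4035 with IL4, 6125 and 7056 for IL4 in WT and KO, and 2755, 1520 and 2338 for the LPS, IFNg and IL4 interactions. The compared groups alone called 1021 genes with LPS and 862 for its interaction. For IFNg edgeR called 2533 and DESeq2 2576 genes, for IL4 2862 and 2735, and DESeq2 called 849 and 1169 for the IFNg and IL4 interactions.

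With 1 library left out, between 3 and 5 of the 8 genes were called in control, 1 and 3 with IFNg and 1 and 2 for the IFNg interaction. Of all genes, 1008 to 1113, 1263 to 1441 and 375 to 428 were called in the same order. With the replicate number as a block, Tnfsf9 lost its IFNg interaction (0.057), which left 1 of the 8 called, beside 424 of all genes. The block changed no other call of the 8.

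Differences that changed sign (log2; ranges are over leaving out 1 library) were, between the genotypes with LPS, Pdcd1lg2 (-0.84 to 0.95) and Havcr2 (-0.28 to 0.065). With IL4 they were Havcr2 (0.021 with median centring, 0.010 by edgeR, -0.18 to 0.058) and Cd80 (0.011 with median centring, -0.086 to 0.057). Pdcd1lg2 after LPS gave -0.43 to 1.08 in WT, and in KO 0.39 by edgeR, 0.43 by DESeq2 and -1.26 to 0.32. Havcr2 with IFNg in KO was 0.12 with median centring. Among LPS interactions Havcr2 was -0.030 by edgeR, -0.028 by DESeq2 and -0.088 to 0.26, Pdcd1lg2 -1.66 to 0.12, and Cd274 -0.0079 to 0.087. Among IFNg interactions Pdcd1lg2 was 0.26 with a pseudocount of 10, Icosl 0.036 with weights, 0.019 by edgeR, 0.024 by DESeq2 and -0.085 to 0.055, and Cd80 -0.028 with weights and -0.0088 to 0.18. Among IL4 interactions Tnfsf9 was -0.066 with weights and Cd274 -0.0019 to 0.084. Depth limits Pdcd1lg2 in control and LPS cells, and KO LPS replicate 1 throughout.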

Other observations

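Genes near Icosl, chosen after values were seen, were looked at for the same direction. Of 9 tested genes within 250 kb, 5 were lower in KO with LPS and 3 with IFNg, and 1 each in control and IL4 cells, beside 12.5%, 4.21%, 3.05% and 3.14% of all genes, and none was called higher (limma). Trpm2, a calcium-permeable channel gene, had a KO minus WT log2 difference of -2.69 with LPS and -1.82 with IFNg. Pfkl, a glycolytic enzyme gene, had differences of -1.02 with LPS and -0.53 with IFNg. Around Cd274, which was higher in KO in all 4 conditions, 1 of 8 tested genes was higher in control, 1 with LPS, 1 with IFNg and 4 with IL4 (4.11%, 9.70%, 4.83% and 6.14% of all genes), among the last Jak2, a kinase of the IFN-gamma receptor, by 0.32. These neighbours include Pdcd1lg2 itself, which was not called, and A930007I19Rik, which overlaps Pdcd1lg2 on the other strand with 0 shared exon bases. A930007I19Rik was the IFNg call (0.96) and was also called with IL4 (0.87). With LPS Rcl1 (-0.57) and Insl6 (-0.36) were lower. Around Cd86, 6 genes were tested and none was called in control or IFNg cells, 1 was higher with LPS and 1 lower with IL4.

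Lck, a T cell kinase gene, rose in these macrophage libraries from 8.87 ± 1.47 in WT control to 543 ± 27.5 with LPS and 614 ± 16.5 with IFNg, and stood at 1112 ± 132 in KO LPS. Clec9a, a dendritic cell lectin gene, was 651 ± 59.0 in WT and 628 ± 20.7 in KO with IFNg, and 6.08 ± 2.57 in WT control.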
